A study of Mus musculus with 12 samples.

Results

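The membrane-spanning MS4A genes of mouse myeloid cells were followed across 12 sorted cell populations of brain and blood. The 10 genes described are Ms4a4a, Ms4a4b, Ms4a4c, Ms4a4d, Ms4a6b, Ms4a6c, Ms4a6d, Ms4a7, Ms4a8a and Ms4a3, out of 19938 genes measured and 19 measured genes whose symbol starts with Ms4a. They were selected by symbol and chosen with values of these same arrays known, so their levels and differences are given as a description, with no test.

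Cells were sorted from C57BL/6 mice, either normal or carrying gliomas of GL261, a mouse glioma line that is implanted into the brain and in this study expressed luciferase. There was 1 array for each condition. From brain these were microglia (MG, sorted as CD11b+/CD45low) and macrophages (MP, CD11b+/CD45high) of normal mice, MG and MP of tumor brain, and Gr1+ and Gr1- cells of tumor brain. From blood they were Gr1+ and Gr1- cells of tumor-bearing mice and populations labeled macrophage high and macrophage low, of tumor-bearing and of normal mice. The labels carry the same text for all 12 arrays, mice of 7 weeks at implantation and 2 weeks of tumor growth, also for the normal mice. What high and low stand for and how many animals gave each RNA are not given in the sources used here. Gr1 is an antigen of monocytes and granulocytes, and the Gr1+ and Gr1- sorts may overlap with the MG and MP sorts of the same tissue.

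MS4A proteins are small proteins that cross the cell membrane several times, with both ends inside the cell. CD20 of B cells and the beta chain of the high-affinity IgE receptor are the best known of the family. Several of the others are found on myeloid cells, where some sit beside immune receptors. In the brain, Ms4a7 is widely used as a marker of macrophages other than resting microglia.

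The genes lie next to each other. In the RefSeq annotation of GRCm38.p6, 22 protein-coding genes follow one another in the cluster on chromosome 19, of which 21 are Ms4a genes. Ms4a7, Ms4a4a, Ms4a4c, Ms4a4b, Ms4a6c, Gm8369, Ms4a6b, Ms4a4d and Ms4a6d stand in that order, so 8 of the 10 genes lie among 9 neighbors. Ms4a8a lies apart on one side of this run, and Ms4a3 lies beyond Ms4a2 on the other. Gene starts of RefSeq were used for 10 windows of 300 bases, 250 before and 50 after a start, which cover 9 of the genes, all but Ms4a6d. The 4 windows below, all on the plus strand, are shown because they come from neighboring gene pairs that resembled each other in sequence but not always in expression. Capitals mark matches to the core of the interferon-stimulated response element (GAAANNGAA), the short core bound by PU.1 (GGAAGT) and an AP-1 motif (TGANTCA), read on both strands. They are Ms4a6b at chr19:11518309-11518608, Ms4a6c at chr19:11469118-11469417, Ms4a4b at chr19:11443308-11443607 and Ms4a4c at chr19:11407411-11407710.
Ms4a6b: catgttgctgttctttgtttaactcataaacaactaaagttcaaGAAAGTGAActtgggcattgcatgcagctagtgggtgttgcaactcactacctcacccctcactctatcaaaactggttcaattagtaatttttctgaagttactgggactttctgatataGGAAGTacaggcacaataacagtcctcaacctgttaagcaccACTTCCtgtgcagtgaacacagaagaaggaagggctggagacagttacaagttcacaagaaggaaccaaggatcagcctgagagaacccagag
Ms4a6c: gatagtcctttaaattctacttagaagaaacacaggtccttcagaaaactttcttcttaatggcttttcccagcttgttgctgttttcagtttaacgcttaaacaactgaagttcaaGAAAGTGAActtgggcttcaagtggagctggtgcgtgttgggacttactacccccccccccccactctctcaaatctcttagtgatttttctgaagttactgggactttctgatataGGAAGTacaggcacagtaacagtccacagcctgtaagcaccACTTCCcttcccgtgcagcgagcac
Ms4a4b: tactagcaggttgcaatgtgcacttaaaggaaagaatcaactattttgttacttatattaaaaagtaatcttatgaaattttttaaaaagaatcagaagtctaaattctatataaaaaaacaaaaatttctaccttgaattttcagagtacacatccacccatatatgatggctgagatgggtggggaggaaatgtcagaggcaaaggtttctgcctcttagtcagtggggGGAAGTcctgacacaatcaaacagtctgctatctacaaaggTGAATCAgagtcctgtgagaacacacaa
Ms4a4c: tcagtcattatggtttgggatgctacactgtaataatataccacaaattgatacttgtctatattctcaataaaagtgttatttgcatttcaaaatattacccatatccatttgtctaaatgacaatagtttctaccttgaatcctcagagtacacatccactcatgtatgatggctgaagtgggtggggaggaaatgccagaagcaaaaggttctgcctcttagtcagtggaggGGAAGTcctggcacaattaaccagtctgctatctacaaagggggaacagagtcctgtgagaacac

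The Ms4a6b and Ms4a6c windows both held the response element match GAAAGTGAA, at positions -206 and -133 from the gene start. Aligned over their length, these windows were 65.7% identical, against a median of 58.15% and a range of 53.7% to 79.0% over 44 pairs of windows of different genes. The highest identity, 79.0%, was that of Ms4a4b and Ms4a4c. Those 2 windows share a PU.1 core, at -19 and -15. The response element core was present in 4 of the 10 windows, those of Ms4a6b, Ms4a6c and both of Ms4a7, and in 8.56% of 32851 promoter windows of the genome. The PU.1 core occurred in 7 of the 10 and in 23.8% of all windows, and its longer form GAGGAAGT in 0 and 3.2%. C/EBP (TTGCNNAA) had a match in 2 and in 10.8% of all windows, AP-1 in 3 and in 7.81%, and the STAT motif GAS (TTCNNNGAA) in 0 and in 8.3%. The longer PU.1 motif contains the short core. A match is a string of letters, not evidence of binding.

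Levels are log2 signals, 1 probe set for each of the 10 genes, and they are compared between arrays for 1 gene, never between genes. Each array has its own background, the 95th percentile of 1027 olfactory receptor genes, which are expressed in the nose and serve here as genes that blood and brain leukocytes should lack. It ran from 8.93 to 10.09, and 11.2% to 39.1% of all genes lay above it, with the highest background and the lowest share on normal blood macrophage high. A difference is called 2-fold where 2 arrays are at least 1 apart on the log2 scale. Over the 10 comparisons the log2 differences of the olfactory receptor genes had an SD of 0.34 to 0.54, which is a yardstick of noise and not a replicate error. The SD leaves out a shared shift. From 1.17% (tumor MP against tumor MG) to 9.25% (normal blood macrophage high against low) of these genes differed 2-fold. The latter comparison had the lowest SD, but its median difference of all genes was 0.39.

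Some sorts went against their labels or stood apart. Of 8 measured NK cell markers, 8 were above background on blood macrophage low of tumor-bearing mice and 7 on macrophage high of normal mice, against 3 on tumor Gr1- and 0 on the other 9 arrays. Those 2 blood arrays also held 3 and 1 of 10 monocyte markers, whereas macrophage high of tumor-bearing mice held 10 and macrophage low of normal mice 9, together with 9 of 12 neutrophil markers each. The labels high and low thus cover opposite cell contents in tumor-bearing and in normal mice. B cell markers were above background on blood arrays, 5 of 6 on Gr1- and on normal macrophage high and 6 on each of the other 3 macrophage arrays, and 1 on Gr1+. The array labeled blood Gr1- held 11 of 11 microglia markers, which goes against a blood label, as did tumor MP, and these 2 arrays correlated at 0.962 over all genes. Each result that uses it is a result about the array with that label. Tumor MG and tumor MP correlated at 0.975. Normal MP held 12 of 12 neutrophil markers, 9 of 9 markers of border-associated macrophages and 11 of 11 microglia markers. Blood Gr1+ held 9 of the 12 neutrophil markers and also 5 of the 11 microglia markers.

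The number of the 10 genes above background was 9 on tumor Gr1+, 8 on blood Gr1+ and 5 on tumor Gr1-. Of all genes, 35.2%, 32.3% and 39.1% were above background on these arrays. Tumor MG, normal MP, tumor MP, blood Gr1- and blood macrophage high of tumor-bearing mice each had 6, beside 26.3% to 37.7% of all genes. The lowest counts were 4 on normal blood macrophage low, 3 on normal MG and on blood macrophage low of tumor-bearing mice, and 2 on normal blood macrophage high. In the same order, 26.3%, 27.1%, 31.1% and 11.2% of all genes were above background, so the counts of 3 were near that share. Of the 10 genes, 6 were highest on tumor Gr1+. The share of all genes highest on that array was not counted.

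**Figure D1:**
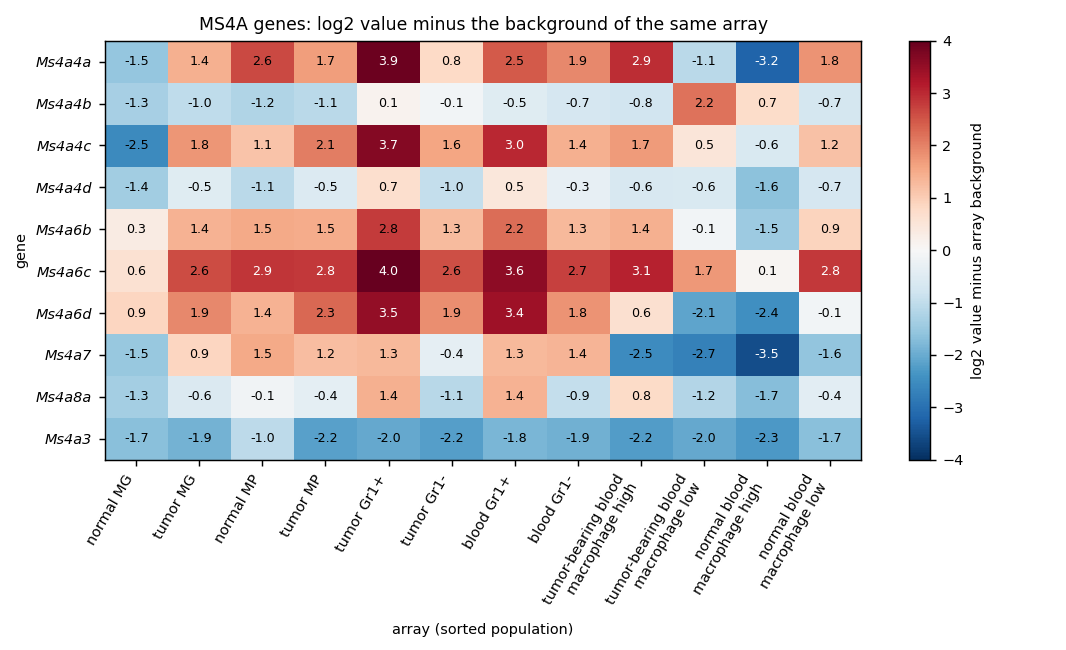
Log2 value minus the background of the same array for the 10 MS4A genes (rows) on the 12 arrays (columns), with red above and blue below background. Tumor Gr1+ has 9 genes above background and normal blood macrophage high 2, beside 35.2% and 11.2% of all genes. The Ms4a3 row is below background on all arrays.

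Among the Ms4a4 genes, Ms4a4a encodes a protein of tissue macrophages that gathers with the beta-glucan receptor dectin-1 in lipid rafts and is also tied to the microglial receptor TREM2. In brain its log2 value was 7.90 in normal MG, 10.79 in tumor MG, 11.70 in normal MP, 10.90 in tumor MP, 12.95 in tumor Gr1+ and 9.73 in tumor Gr1-. In blood it was 11.56 in Gr1+, 10.96 in Gr1-, 11.96 and 8.18 in macrophage high and low of tumor-bearing mice, and 6.88 and 11.22 in macrophage high and low of normal mice. Ms4a4a was therefore above background on 9 arrays, all but normal MG and the 2 blood arrays with NK cell markers. Of all its values the lowest was the one on normal blood macrophage high.

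Ms4a4c, which belongs to the same subfamily and lies next to Ms4a4a, is a gene of myeloid cells and lymphocytes. Its log2 values were 6.89 in normal MG, 11.15 in tumor MG, 10.22 in normal MP, 11.29 in tumor MP, 12.69 in tumor Gr1+ and 10.52 in tumor Gr1-. The blood values were 12.11 in Gr1+, 10.46 in Gr1-, 10.73 and 9.75 in macrophage high and low of tumor-bearing mice, and 9.48 and 10.59 in those of normal mice. It was above background on 10 arrays, the exceptions being normal MG and normal blood macrophage high. Both Gr1+ arrays stood above all others.

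Ms4a4b, best known from T cells and NK cells, where its protein dampens proliferation and associates with the receptor GITR, had another pattern. It read 11.43 in blood macrophage low of tumor-bearing mice and 10.82 in macrophage high of normal mice, the 2 arrays with NK cell markers. The other 10 arrays lay between 7.88 and 9.16. Of these only tumor Gr1+, at 9.16 with a background of 9.01, was above background. On tumor Gr1-, which held 3 of the 8 NK cell markers, Ms4a4b was 8.84 against a background of 8.93. The median log2 value of the NK cell markers was 12.43 and 11.20 on the 2 high arrays, 8.87 on tumor Gr1- and 6.37 to 7.25 elsewhere. Of the 7 measured T cell markers 1, Cd3e, was above background on any array, and its signal was above on 11 arrays. The part of NK cells in the Ms4a4b signal was not tested.

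The fourth gene, Ms4a4d, was above background on the 2 Gr1+ arrays only, at 9.68 in tumor and 9.56 in blood. On the other arrays it lay between 7.97, in tumor Gr1-, and 8.89, in tumor MG.

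The Ms4a6 genes encode less studied proteins of monocytes and macrophages. Ms4a6c was above background on 12 of 12 arrays. In brain it read 10.05 in normal MG, 11.97 in tumor MG, 11.93 in normal MP, 12.04 in tumor MP, 13 in tumor Gr1+ and 11.50 in tumor Gr1-. In blood it read 12.67 in Gr1+, 11.75 in Gr1-, 12.10 and 10.98 in macrophage high and low of tumor-bearing mice, and 10.16 and 12.23 in those of normal mice. The lowest brain value was that of normal MG, and the lowest blood value that of normal macrophage high, where the background was 10.09.

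Ms4a6b was highest on the same 2 Gr1+ arrays as Ms4a6c. Its log2 values were 9.75 in normal MG, 10.75 in tumor MG, 10.57 in normal MP, 10.71 in tumor MP, 11.80 in tumor Gr1+ and 10.19 in tumor Gr1-. In blood they were 11.31 in Gr1+, 10.31 in Gr1-, 10.45 and 9.15 in macrophage high and low of tumor-bearing mice, and 8.64 and 10.30 in those of normal mice. Only the 2 arrays with NK cell markers were below background.

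Ms4a6d, like the other Ms4a6 genes, was above background on all 6 brain arrays. The values were 10.31 in normal MG, 11.28 in tumor MG, 10.46 in normal MP, 11.52 in tumor MP, 12.52 in tumor Gr1+ and 10.80 in tumor Gr1-. In blood Gr1+ and Gr1- it read 12.49 and 10.83. In the blood macrophage sorts it was lower, at 9.66 and 7.15 in high and low of tumor-bearing mice and 7.64 and 9.29 in those of normal mice, and only the first of these was above background. Macrophage low of normal mice, which held 9 of 10 monocyte markers, was below its background of 9.41.

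**Figure D2:**
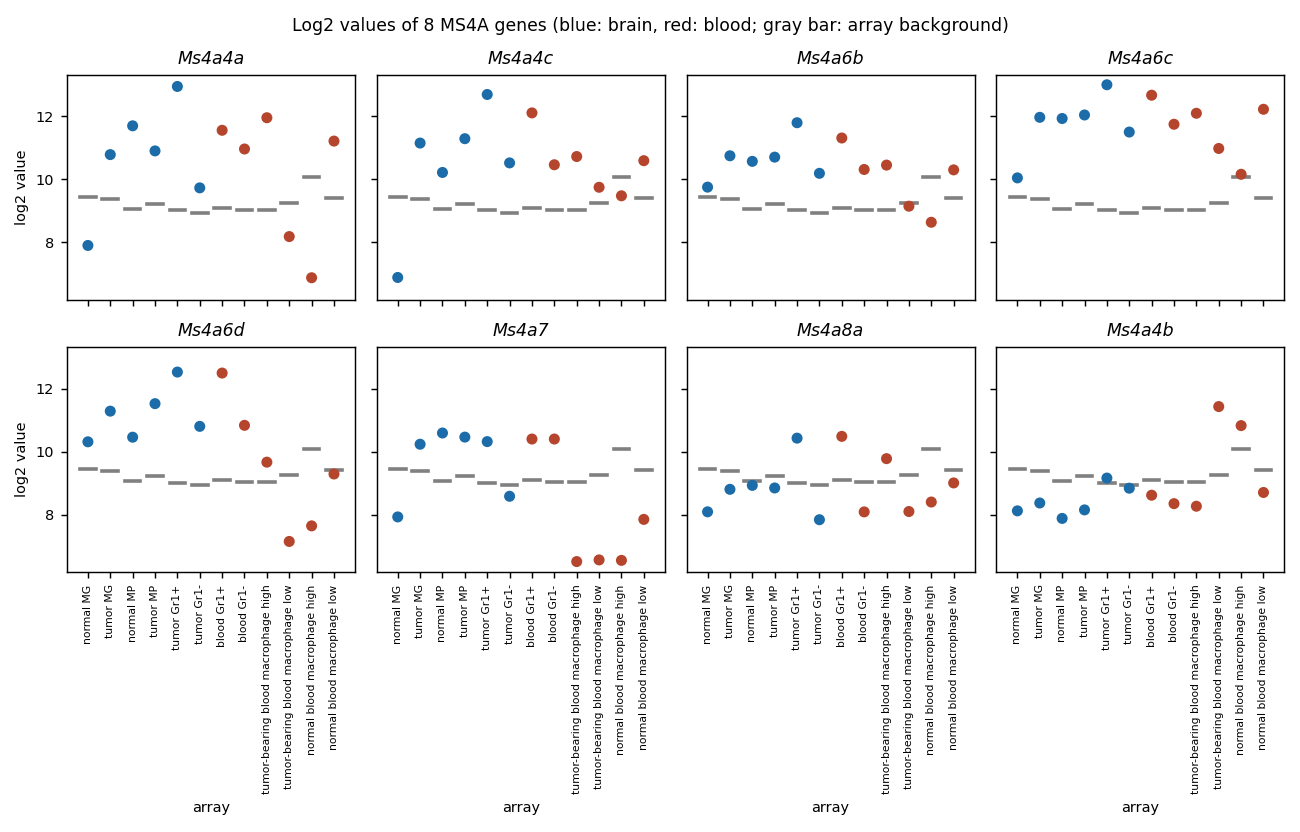
Log2 values of 8 MS4A genes, 1 point per array, with brain arrays in blue, blood arrays in red and the background of each array as a gray bar. Ms4a6c is above background on all 12 arrays, Ms4a4b is high on the 2 blood arrays with NK cell markers, and Ms4a7 is below background on all 4 blood macrophage arrays.

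Ms4a7 was above background on 6 arrays, and none of these was a blood macrophage sort. It read 10.23 in tumor MG, 10.59 in normal MP, 10.46 in tumor MP, 10.32 in tumor Gr1+ and 10.40 in each of blood Gr1+ and Gr1-. These 6 values lay close together. The lower values were 7.92 in normal MG, 8.58 in tumor Gr1- and 6.51, 6.56, 6.55 and 7.85 in the 4 blood macrophage sorts. Ms4a7 was thus below background on blood macrophage high of tumor-bearing mice and on macrophage low of normal mice, which carried monocyte markers and on which Ms4a4a, Ms4a4c, Ms4a6b and Ms4a6c were above it. Of the border-associated macrophage list, 9 of 9 markers were above background on normal MP, where Ms4a7 was highest, but 1 or 2 on the other arrays with Ms4a7 signal.

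Ms4a8a, a gene induced in alternatively activated macrophages, was above background on 3 arrays. These were tumor Gr1+ at 10.43, blood Gr1+ at 10.48 and blood macrophage high of tumor-bearing mice at 9.77. The other arrays lay between 7.84, in tumor Gr1-, and 9.0, in normal blood macrophage low.

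Ms4a3, a gene of granulocyte and monocyte progenitors whose protein binds a phosphatase of the cell cycle, was below background on all 12 arrays, between 6.73 and 8.03. Of 5 measured markers of granulocyte precursors, 1, Cebpe, was above background.

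**Figure D3:**
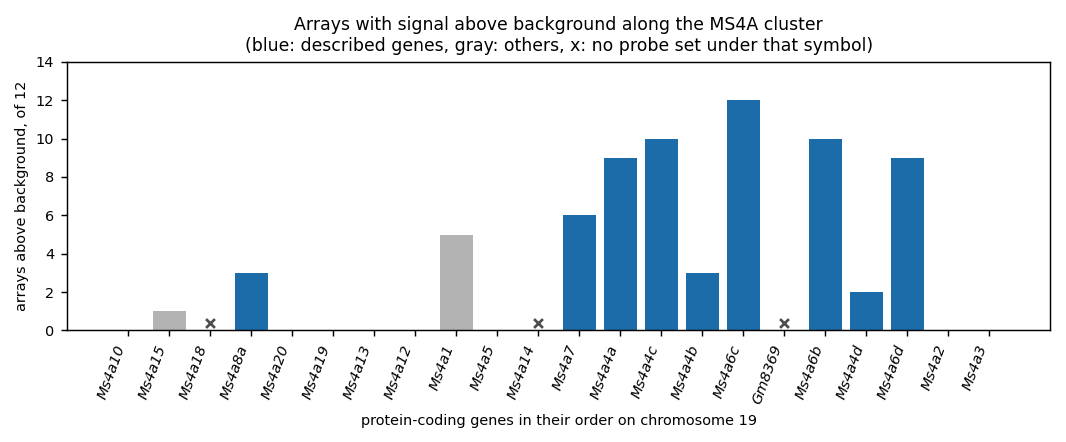
Number of arrays above background, of 12, for the protein-coding genes of the MS4A cluster in their order on chromosome 19, with the described genes in blue. The run from Ms4a7 to Ms4a6d holds genes above background on 2 to 12 arrays, and Ms4a3 at the end of the cluster has 0.

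Of the other genes of the family and its relatives, 9 of 11 listed had a probe set with a single gene symbol, and 4 of these 9 were above background on any array. Ms4a1, which encodes CD20, was above background on 5 blood arrays, at 9.15 in Gr1-, 10.16 and 11.77 in macrophage high and low of tumor-bearing mice, and 11.62 and 10.52 in those of normal mice. On the other 7 arrays it lay between 5.86 and 7.66. The 5 arrays were those with 5 or 6 of the 6 B cell markers above background. The part of B cells in this signal was not tested.

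Tmem176a and Tmem176b, neighbors on another chromosome whose proteins resemble MS4A proteins, were higher in normal than in tumor MG and MP. Only the difference of Tmem176a in MP passed 2-fold, and Tmem176a in tumor MG was below background. Tmem176b read 12.50 in normal MG and 11.66 in tumor MG, 12.64 in normal MP and 11.70 in tumor MP. In blood it was highest in Gr1-, at 11.74, and lowest in macrophage high of normal mice, at 7.97, and 10 arrays were above background. Tmem176a read 10.13 and 9.33 in normal and tumor MG, and 11.27 and 9.49 in normal and tumor MP, with 6 arrays above background. Ms4a15 was above background on 1 array, tumor MP, at 9.31, and Ms4a2, Ms4a5, Ms4a10, Ms4a12 and Ms4a13 on 0.

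Of 7 genes for partners of MS4A proteins, 4 were above background on at least 7 arrays. Clec7a, which encodes dectin-1, read 8.90 in normal MG, 11.34 in tumor MG, 12.69 in tumor Gr1+ and 12.60 in blood Gr1+. It was 7.03 and 6.94 on the 2 blood arrays with NK cell markers, so the arrays without Clec7a signal were the same 3 as for Ms4a4a. Trem2 read 11.27 in normal MG, 10.67 in tumor MG and 9.23 in tumor Gr1+, and 10.18 in normal and 10.72 in tumor MP. Clec7a read 11.09 and 11.64 in normal and tumor MP, so the genes differed in direction in MG but not in MP. Of these differences only that of Clec7a in MG, 2.44 on the log2 scale, passed 2-fold. Clec7a was below background in normal MG, and with that value raised to background the difference was 1.91. Trem2 was below background on blood Gr1+ and on the 4 blood macrophage sorts. The signaling adaptors Tyrobp and Fcer1g were above background on 12 arrays, between 10.84 and 13.38 and between 10.89 and 13.07. Tnfrsf18, which encodes GITR, Cdkn3 and Fcer1a were above background on 0.

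**Figure D4:**
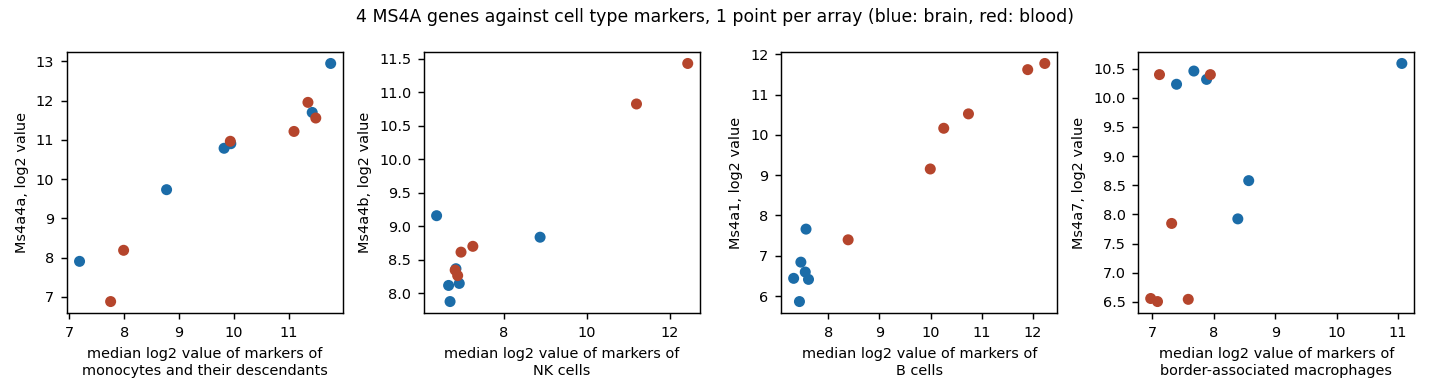
Log2 values of Ms4a4a, Ms4a4b, Ms4a1 and Ms4a7 (vertical axes) against the median log2 value of a marker list (horizontal axes), 1 point per array, brain in blue and blood in red. The 2 arrays with NK cell marker medians of 12.43 and 11.20 have the 2 highest Ms4a4b values, and the 5 arrays with 5 or 6 B cell markers above background have the 5 highest Ms4a1 values.

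The study compared glioma-associated with normal MG and MP. In tumor MG, Ms4a4c was higher than in normal MG by 4.27 on the log2 scale, Ms4a4a by 2.88, Ms4a7 by 2.31 and Ms4a6c by 1.92. The first 3 were below background in normal MG, and with that value raised to its background the differences were 1.72, 1.35 and 0.80. So 4 of 10 genes reached 2-fold upwards and 0 downwards, where 2.44% of all genes were higher and 3.61% lower. Ms4a6b, at 0.995, and Ms4a6d, at 0.97, lay just under 2-fold. The median of the 10 genes was 0.98 and that of all genes -0.09. Monocyte markers moved with them, from 0 of 10 above background and a median log2 value of 7.18 in normal MG to 6 and 9.82 in tumor MG, and the median of the microglia markers was 12.88 and 11.48. Their part in the result was not tested. In a sorted bulk sample, more cells of a type and more RNA per cell cannot be told apart.

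In MP the same comparison gave small differences. Ms4a4c was higher in tumor MP by 1.07 and Ms4a6d by 1.06, and the other 8 genes were within 2-fold. The share of all genes at least 2-fold higher was 1.65%, and 3.58% were lower. Ms4a4a was 0.80 lower on the log2 scale in tumor than in normal MP, Ms4a7 differed by -0.13 and Ms4a6c by 0.11. The median was 0.12 for the 10 genes and 0.12 for all genes. Ms4a4c was thus one of the genes higher in tumor in both sorts, which was known when the genes were chosen. In normal MP 8 of the 10 monocyte markers were above background and in tumor MP 7, at medians of 11.43 and 9.95, and the neutrophil markers went from 12 of 12 to 2 of 12. Markers of border-associated macrophages went from 9 of 9 to 2 of 9, at medians of 11.06 and 7.67. Both arrays held 11 of 11 microglia markers. The part of these cell contents in the result was not tested.

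Between the sorts of one tissue, 4 genes were 2-fold higher in normal MP than in normal MG and 0 lower, against 4.35% and 3.11% of all genes. Ms4a4a was higher by 3.80, Ms4a4c by 3.33, Ms4a7 by 2.66 and Ms4a6c by 1.88. These were the 4 genes that passed 2-fold in tumor MG, and both comparisons use the 1 normal MG array. With values below background raised to it, the first 3 differences were 2.27, 0.79 and 1.15. From normal MG to normal MP the monocyte markers above background went from 0 to 8 of 10, the neutrophil markers from 1 to 12 of 12 and the markers of border-associated macrophages from 2 to 9 of 9, and their part in the result was not tested. In tumor, none of the 10 genes differed 2-fold between MP and MG, and the differences ran from -0.43 to 0.24, within the size of the noise (SD 0.35) but for Ms4a3, which is below background. In this comparison 0.186% and 0.155% of all genes were 2-fold higher and lower.

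Gr1+ and Gr1- cells of tumor brain showed the broadest difference. Ms4a4a was higher in Gr1+ by 3.22, Ms4a8a by 2.59, Ms4a4c by 2.17, Ms4a7 by 1.74, Ms4a6d by 1.72, Ms4a4d by 1.71, Ms4a6b by 1.61 and Ms4a6c by 1.50. Ms4a4b and Ms4a3 differed by 0.32 and 0.24. Thus 8 genes were 2-fold higher and 0 lower, beside 2.88% and 5.12% of all genes. The differences of Ms4a8a, Ms4a7 and Ms4a4d, which were below background on Gr1-, became 1.49, 1.38 and 0.75 with that value raised to background. All 10 monocyte markers were above background on tumor Gr1+ and 5 on Gr1-, while 4 and 11 of the 11 microglia markers were, and the part of this in the result was not tested.

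In blood 3 genes were 2-fold higher in Gr1+ than in Gr1-, Ms4a8a by 2.40, Ms4a6d by 1.66 and Ms4a4c by 1.65, and 0 were lower, beside 3.2% and 4.31% of all genes. Ms4a8a was below background on blood Gr1-, and its difference was 1.45 with that value raised to background. Ms4a6b, at 0.9998, and Ms4a6c, at 0.92, lay just under the threshold. Ms4a4a differed by 0.59. Ms4a7 differed by 0.00, whereas in tumor its 2 values were 10.32 and 8.58. Neutrophil markers above background numbered 9 of 12 in blood Gr1+ and 1 in blood Gr1-, and microglia markers 5 and 11 of 11.

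The arrays labeled tumor and blood were also compared within a Gr1 sort. In Gr1+ cells Ms4a4a was higher in tumor by 1.39 and was the only gene past 2-fold, beside 1.02% of all genes higher and 2.97% lower. Ms4a4c and Ms4a4b followed at 0.58 and 0.54. Ms4a4b was below background on blood Gr1+, and its difference was 0.06 with that value raised to background. Neutrophil markers above background numbered 2 of 12 on tumor Gr1+ and 9 on blood Gr1+, and microglia markers 4 and 5 of 11. In Gr1- cells, where the blood label is in doubt, 0 genes were 2-fold higher in tumor and 2 lower, Ms4a7 by 1.82 and Ms4a4a by 1.23 on the log2 scale, beside 0.547% and 2.44% of all genes. Ms4a7 was below background on tumor Gr1-, and the difference was -1.46 with that value raised to background. Monocyte markers above background numbered 5 of 10 on tumor and 7 on blood Gr1-, B cell markers 0 and 5 of 6 and microglia markers 11 and 11 of 11. The part of these in the results was not tested.

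**Figure D5:**
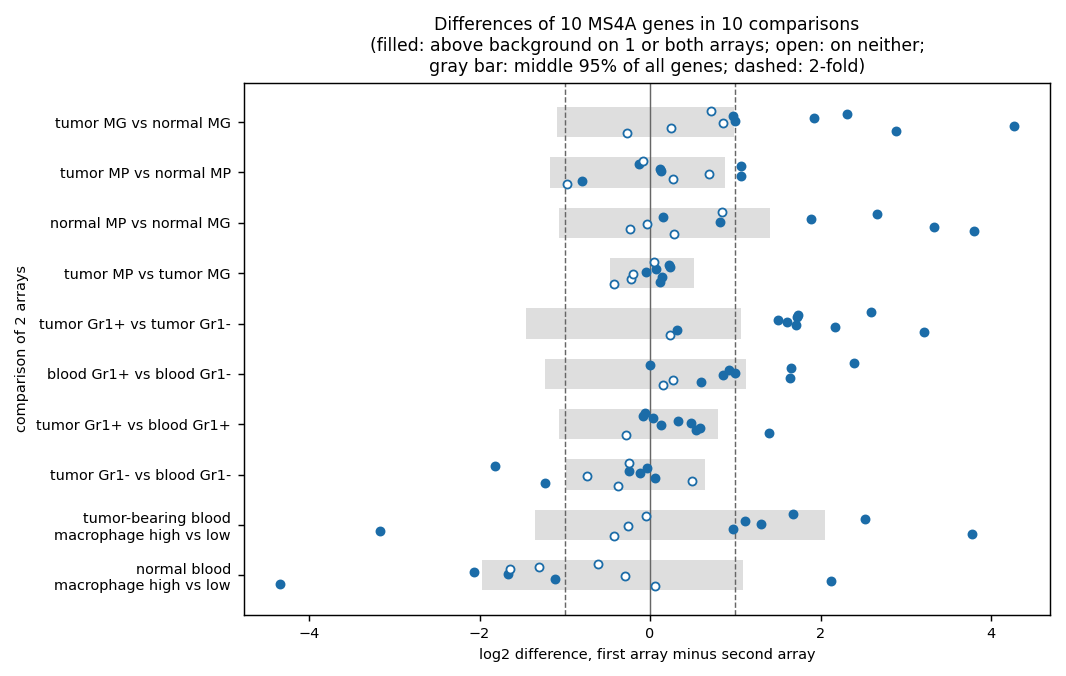
Log2 differences of the 10 MS4A genes in the 10 comparisons of 2 arrays, first minus second, with genes below background on both arrays as open circles, the middle 95% of all genes as gray bars and 2-fold as dashed lines. In tumor Gr1+ against Gr1- 8 genes lie right of 2-fold, and the 2 comparisons of blood macrophage high with low place most of the genes on opposite sides.

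Blood macrophage high and low differed in opposite directions in the 2 kinds of mice. In tumor-bearing mice Ms4a4a was higher in macrophage high by 3.77, Ms4a6d by 2.52, Ms4a8a by 1.68, Ms4a6b by 1.30 and Ms4a6c by 1.12, and Ms4a4b was lower, with a difference of -3.16. Ms4a4c, at 0.98, lay just under 2-fold. That made 5 genes higher and 1 lower, beside 6.72% and 5.17% of all genes. In normal mice Ms4a4b was higher in macrophage high by 2.12, the one gene of 10, beside 4.37% of all genes. There 6 genes were 2-fold lower, beside 11.9% of all genes, namely Ms4a4a at -4.34, Ms4a6c at -2.06, Ms4a6b at -1.66, Ms4a6d at -1.65, Ms4a7 at -1.30 and Ms4a4c at -1.11. Ms4a6d and Ms4a7 were below background on both of these arrays. Several of the other differences rest on values below background on the array with NK cell markers. With such values raised to background, Ms4a4a differed by 2.70 and -1.13 in the 2 kinds of mice, Ms4a6b by 1.20 and -0.21 and Ms4a4c by 0.98 and -0.50, and in tumor-bearing mice Ms4a6d by 0.41 and Ms4a8a by 0.52. Ms4a4b was instead below background on the other array of each pair. Its differences became -2.41 and 1.41 with those values raised. NK cell markers were on the low array of tumor-bearing and the high array of normal mice and monocyte markers on the other array of each pair. For 7 of the 10 genes, with at least 1 difference of 2-fold, the direction went with the marker content and not with the label. Of these, Ms4a6d and Ms4a8a were below background on both normal arrays. Ms4a3, below background throughout, also changed direction, at -0.43 and 0.05. The share of all genes that changed direction was not counted, so the 7 are not a result about this family.

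Leaving aside Ms4a4b and Ms4a3, the 28 pairs of the other 8 genes had a Pearson's r over the 12 arrays of 0.30 to 0.949, with a median of 0.704. It was 0.949 for Ms4a6c with Ms4a4a, 0.908 for Ms4a6b with Ms4a4a, 0.906 for Ms4a6d with Ms4a6b and 0.901 for Ms4a6c with Ms4a4c. At the low end were Ms4a8a with Ms4a7 at 0.30, Ms4a7 with Ms4a4d at 0.383 and Ms4a6d with Ms4a4d at 0.465. The r of Ms4a4b to these 8 genes ran from -0.705 with Ms4a6d to 0.115 with Ms4a4d, and it was -0.098 with Ms4a4c and -0.598 with Ms4a4a. That of Ms4a3 ran from -0.475 with Ms4a4c to -0.021 with Ms4a7. The 2 genes were set aside with their values known, whereas Ms4a4d and Ms4a8a, above background on 2 and 3 arrays, were kept. The r over pairs of all genes was not computed, so the 28 pairs do not describe the whole family. The arrays are different sorts with shared tissue and mice. Without normal blood macrophage high r was 0.929 for Ms4a6c with Ms4a4a and 0.951 for Ms4a6c with Ms4a4c. Ms4a4b then had r of -0.593 with Ms4a6d, -0.401 with Ms4a4a and 0.028 with Ms4a4c. Probe sets of near-identical genes of one subfamily can bind each other's transcripts, and such cross-hybridization was not tested.

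Among 7571 other genes above background on at least 4 arrays, the 3 with the highest r to a gene were taken for the 6 genes that met the same condition. For Ms4a4c they were Zbp1, a sensor of nucleic acids (r = 0.951), Ifi209 (0.943) and Irf7, which switches on interferon genes (0.941). Without normal blood macrophage high, Zbp1 and Irf7 were first and second. By Spearman's rho over the 12 arrays, however, the 3 closest to Ms4a4c were other genes, Thbs1, Pkm and Il1rn. Ms4a6c was closest to Mapkapk3 (0.976), the lectin galectin-3, Lgals3 (0.974), and the matrix protein fibronectin, Fn1 (0.968), and the order was the same over 11 arrays.

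Ms4a6d was closest to Npc2, a cholesterol carrier of lysosomes (0.977), Sh2b2 (0.977) and Phf11d (0.966). For Ms4a7 the genes were Sh3pxd2b (0.955), the endocytic adaptor Dab2 (0.954) and Sash1 (0.951). Ms4a6b stood nearest to the glycolytic enzyme Aldoa (0.972), cytochrome c, Cycs (0.961), and Trafd1 (0.953). For Ms4a4a they were Anxa5, a phospholipid-binding annexin (0.964), the lipid droplet protein Plin2 (0.962) and Glrx (0.960), and over 11 arrays these ranked 9, 12 and 13. The likeness for Ms4a4a therefore rested in part on that 1 array.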

How the data were processed

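RNA of 12 sorted populations, 1 array each, was amplified in 2 cycles and measured on Affymetrix Mouse Gene ST arrays. The deposited log2 values were made by the authors with the Expression Console software, and RMA is named in the submitters' processing notes. Annotation release and genome build are not given in the sources used here. Of 28944 probe sets, 21789 with 1 gene symbol were kept (1621 had several, 5534 none), and the brightest by mean over 12 arrays stood for each of 19938 genes. Values were used as deposited, without rescaling or filter. Their upper quartiles ran from 9.40 to 9.73. Background was the 95th percentile of 1027 olfactory receptor genes per array. Each of 10 comparisons is a difference of 2 arrays, counted at 2-fold. With 1 array per condition there are no replicates and no p-values, and the number of arrays limits the precision.

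Members and gene lists were chosen with earlier results of these data known. Named genes were all members, the listed relatives and partners, and the 3 genes of highest Pearson r to each member above background on at least 4 arrays. Probe sets were named from the platform annotation. Promoter windows came from RefSeq (GRCm38.p6). Alternatives tried were cyclic loess, quantile normalization and median centring, averaging the probe sets of a gene, a floor at background, the 90th percentile as background, Spearman's rho and, added after seeing the data, likeness without normal blood macrophage high. The counting was tested on simulated data. Software was R 4.3.3 (limma 3.58.1) and Python 3.11.15 (numpy 2.4.6, pandas 2.3.3, scipy 1.17.1, matplotlib 3.10.9).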

Additional observations from a re-analysis of the deposited data

Results flagged for a closer look

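Some genes moved in opposite directions under the same contrast in 2 settings, with 1 array in each arm, and the difference between the settings was not tested. From normal to tumor, the log2 difference of Ms4a4a was 2.88 in MG and -0.80 in MP, and that of Ms4a7 was 2.31 in MG and -0.13 in MP, the last within the noise yardstick (SD 0.39). From low to high in blood macrophages, Ms4a4a differed by 3.77 in tumor-bearing and -4.34 in normal mice, and Ms4a4b by -3.16 and 2.12. With values below background raised to it, Ms4a4a differed by 2.70 and -1.13 and Ms4a4b by -2.41 and 1.41. The other pairs, in the same order of mice, were 0.98 and -1.11 for Ms4a4c, 1.30 and -1.66 for Ms4a6b and 1.12 and -2.06 for Ms4a6c. For Ms4a6d they were 2.52 and -1.65 and for Ms4a8a 1.68 and -0.61, both below background on the 2 normal arrays. Marker genes differ between these blood arrays in the same crosswise way.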

How the results depend on the processing

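Rescaling and a floor at background left 72 of 80 counts of genes past 2-fold within 1.5 times the value given, and reversed no called difference. The 72 include counts of 0 that stayed 0, and a change from 4 to 6 falls within this limit. In tumor MG against normal MG, the count of 4 genes higher became 6 under median centring and under cyclic loess normalization. It was 7 under quantile normalization and 3 with the floor. Ms4a6b and Ms4a6d passed 2-fold under each of the rescalings. In tumor MP, median centring gave 1 higher, and 1 gene was lower under each of median centring, quantile and cyclic loess normalization. Median centring gave 5 genes higher in blood Gr1+. Raising values below background to it left 3 genes higher in blood macrophage high of tumor-bearing mice and 2 lower in that of normal mice. Of the single differences, 341 moved by less than the noise yardstick and 27 by more. Averaging probe sets could change nothing for the 10 genes, which have 1 probe set each. At the 90th percentile as background the 12 counts of genes above background stayed within 1.5 times the value given. Rescaling moved the median difference of all genes by over 0.1 in several comparisons, up to -0.34 in normal blood macrophages under cyclic loess, and changed the split of genes higher and lower. In tumor MG it was 487 and 719 as deposited and 658 and 539 under quantile normalization, in normal MP against normal MG 868 and 620 against 1159 and 318 under cyclic loess, in blood Gr1+ against Gr1- 638 and 859 against 805 and 673 under median centring, and in normal blood macrophages 871 and 2365 against 302 and 3223 under median centring. In macrophage high against low of tumor-bearing mice it was 1339 and 1031 as deposited and 1692 and 681 under median centring, and in tumor against blood Gr1- 109 and 487 against 186 and 280 under quantile normalization. The cause was not tested. Under Spearman's rho the 3 closest genes shared 0 to 2 with those by Pearson's r for each of 6 genes. None were shared for Ms4a4a, Ms4a4c and Ms4a6d. No paired analysis was possible because each condition has 1 array.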
